A study of Arabidopsis thaliana with 116 samples.

Results

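AT4G29200 and AT4G29700 are neighbouring genes of Arabidopsis chromosome 4, chosen by their array signals, which had been found at a low and a high level among the lines studied. They were located by name in the probe annotation, and each had 1 probe set. They are 2 of 13436 probe sets that could be matched to a single gene, among 22746 that were tested. AT4G29200 came first in gene order and AT4G29700 lay 66 gene places after it. The levels, the shares of lines at each level and the lines in which the genes did not match were used in the choice, so those values are given below as a description without a test.

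Developing seeds were sampled from 116 recombinant inbred lines of Arabidopsis thaliana, whose parents, Col-0 and C24, had been crossed in both directions. Line names began with Q for 59 lines and with R for 57, and the labels did not say which direction of the cross each letter stands for. Seeds came from siliques taken 10 to 11 days after flowers opened, pooled over 6 plants of a line with 8 siliques from each. Each line was measured on 1 array, so the p-values measure the spread between lines, and variation within a line was not measured. All lines were grown alike, and the letter was the only grouping in the labels.

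A recombinant inbred line is a largely homozygous mosaic of its parents. A locus at which the parents differ therefore splits such lines into a pair of classes, and neighbouring loci split them alike except where a crossover fell between. AT4G29700 encodes a protein of the alkaline phosphatase-like family that is related to nucleotide pyrophosphatases and phosphodiesterases, enzymes that cleave phosphodiester bonds of nucleotides outside or inside the cell. Its close relatives AT4G29680, AT4G29690 and AT4G29710 stand in tandem around it. The tables used here gave no descriptive name for AT4G29200. Signals are RMA values on the log2 scale, so a difference of 1 is a doubling of signal. Lines in the upper mode of AT4G29200 are called on lines below, and those in its lower mode off lines. In whole seeds, fewer cells of a type and less RNA per cell cannot be told apart, and neither can transcript level and the match of the probes to a parental allele.

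The arrays were alike in scale, with medians between 5.84 and 5.99. The array of line R162 had the lowest median correlation with the other arrays, 0.973, against 0.981 for the next lowest. Oil body genes marked the tissue as seed: AT3G01570, an oleosin family gene, averaged 13.81 ± 0.0560 (SD, n = 116), and OLEO3, the lowest of the 3 measured storage and oil body genes, averaged 13.25 ± 0.101. The 3 measured seed coat genes ran from PRX36, a mucilage peroxidase, at 5.50 ± 0.513 to BAN, an anthocyanidin reductase of tannin synthesis, at 8.68 ± 0.415. Endosperm genes were dim, with IKU2, a receptor kinase gene, at 4.35 ± 0.136 and AGL62, a regulator of endosperm cellularisation, at 3.24 ± 0.0899. LHCB4.1, a light-harvesting gene and the only 1 of 8 leaf and silique wall genes with a named probe set, averaged 11.03 ± 0.292. Measured genes here are those with a probe set matched to them alone, and 8730 probe sets had no gene in the annotation.

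AT4G29200 had a clearly high or a clearly low signal in nearly every line. Off names the lower mode only: 26.1% of probe sets had a mean under it, and absence of transcript was not tested. Its signal was lowest at 3.48, had a median of 9.74 and was highest at 10.91. A mixture of 2 normal components with a common SD placed the modes at 4.34 and 9.98, a distance of 5.63 on the log2 scale or 49.6-fold, with an SD of 0.434. Of the 116 lines, 70 (60.3%) were in the upper mode and 46 (39.7%) in the lower mode, and no line had a posterior between 0.1 and 0.9. Among Q lines 33 (55.9%) were in the upper mode, and among R lines 37 (64.9%).

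Between the levels the lines left a wide empty space with few exceptions. Of the lower-mode lines 44 had signals of 5.03 or less, and of the upper-mode lines 69 had signals of 9.49 or more. The remaining 3 lines lay between, with Q202 at 6.05, R113 at 6.05 and Q039 at 7.82. Lower-mode lines had a median of 4.26 and upper-mode lines one of 9.94.

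AT4G29700 had a graded distribution, and the label of an on-off gene describes it poorly. Its signal was lowest at 3.43, had a median of 3.97 and was highest at 6.48. The common-SD mixture placed modes at 3.95 and 5.58, a distance of 1.63 or 3.09-fold, with an SD of 0.386. Both modes lay below the lowest array median, 5.84, and 17.7% of probe sets had a mean under the lower mode. The mixture put 26 lines (22.4%) in the upper mode, 81 (69.8%) in the lower mode and 9 (7.76%) between. Lines called lower reached 4.65, those between spanned 4.70 to 4.97 and those called upper began at 5.07, so no gap separated the calls. Upper-mode lines numbered 15 of 59 among Q lines and 11 of 57 among R lines.

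The shape of the AT4G29700 distribution was a narrow low peak with a broad upper shoulder. When each component had its own SD, the low component lay at 3.78 with an SD of 0.148 and the high one at 5.05 with an SD of 0.720. This mixture gained 81.4 in BIC over a single component, against 45.0 for the common SD. It put 50 lines (43.1%) in the upper mode, 54 in the lower mode and 12 between. The lines between included the dimmest, R162 at 3.43 and R079 at 3.44, so this call did not always mean an intermediate signal. The widest gap among lines other than the 4 brightest was only 0.151, between 4.09 and 4.24, with 66 lines below it and 50 above.

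**Figure D1:**
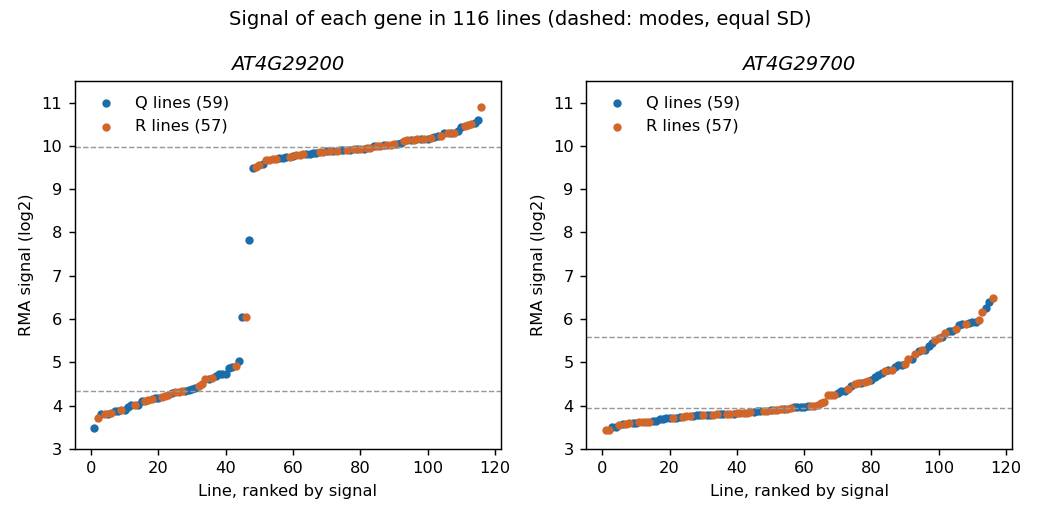
RMA signal on the log2 scale of AT4G29200 (left) and AT4G29700 (right) in 116 lines, ranked by signal; each point is 1 line, coloured by letter, and dashed lines mark the modes of the common-SD mixture. AT4G29200 jumps from 5.03 to 9.49 with 3 lines between, whereas AT4G29700 rises without a gap wider than 0.177.

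The genes were in opposite states in most lines. Where AT4G29200 was in the lower mode, AT4G29700 was lowest at 3.64, had a median of 5.08 and reached 6.48, with a mean of 5.16 ± 0.696 (SD, n = 46). Where AT4G29200 was in the upper mode, AT4G29700 was lowest at 3.43, had a median of 3.81 and reached 5.67, with a mean of 3.87 ± 0.351 (SD, n = 70). The ranges overlapped, and the lines with AT4G29200 off were the brighter and more variable ones for AT4G29700. The same held within the letters: AT4G29700 averaged 5.20 ± 0.694 (n = 26) against 3.87 ± 0.346 (n = 33) in Q lines, and 5.10 ± 0.712 (n = 20) against 3.87 ± 0.360 (n = 37) in R lines.

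Most of the overlap came from 5 lines, chosen after their values were seen. Q202 and R113 had AT4G29200 in the lower mode yet AT4G29700 at only 3.64 and 3.84. Q039, R165 and Q111 had AT4G29200 in the upper mode, at 7.82, 10.30 and 10.60, yet AT4G29700 at 5.29, 5.67 and 4.74. Without these lines AT4G29700 averaged 5.22 ± 0.639 (n = 44) with AT4G29200 off and 3.80 ± 0.181 (n = 67) with it on. The lowest line of the first class was then at 4.24 and the highest of the second at 4.33, so that 2 lines of each class lay in the overlap.

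**Figure D2:**
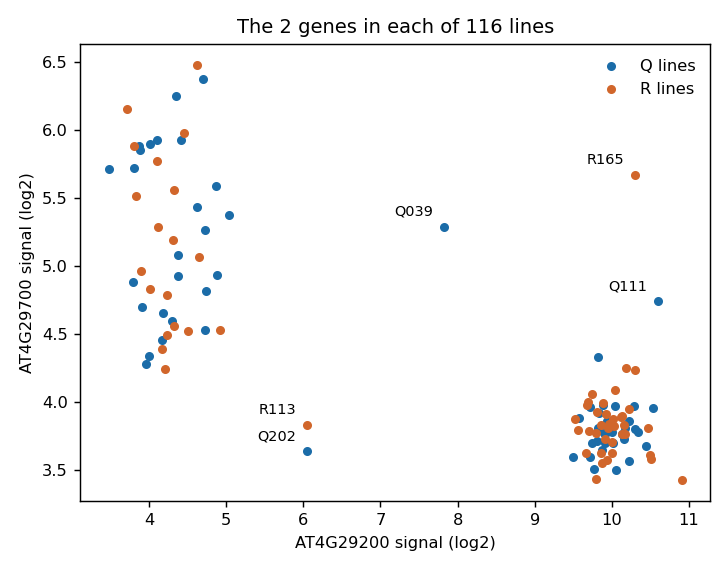
AT4G29700 signal against AT4G29200 signal, both on the log2 scale, in 116 lines coloured by letter, with the 5 lines of unmatched signals named. All other lines fall into a cloud at the upper left, where AT4G29700 is 4.24 or more, and one at the lower right, where it is 4.33 or less.

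The count of lines in which the genes were not opposite depended on how AT4G29700 was called. With the common-SD mixture, 16 of the 107 lines called for both genes had both in the same mode, or 14.95% (95% exact binomial interval 8.80 to 23.1%). Of these 14 were lower for both and 2 upper for both. With separate SDs it was 8 of 104 lines, or 7.69% (3.38 to 14.6%), of which 2 were lower for both and 6 upper for both. The intervals cover counting error only. They leave out the calling of AT4G29700 and the choice of these genes by such lines, so they are a description and no test. Q202 and R113 were lower for both under either mixture. The other 12 lines that the common-SD mixture took as lower for both had AT4G29700 at 4.24 to 4.65 and were upper for it with separate SDs.

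The modes of bimodal genes on either side were set against those of AT4G29200. These modes are calls from signals, no genotypes were used, and some genes left lines uncalled. AT4G31570 lay 309 places after AT4G29200 and its modes differed from those of AT4G29200 in 8 of 116 lines (6.90%). AT4G32240, 399 places after, differed in 8 lines (7.21% of those called), and AT4G31000, 233 places after, in 10 of 109 (9.17%). On the other side AT4G25870, 436 places before, differed in 11 lines (9.91% of those called), and AT4G22280, 916 places before, in 17 of 116 (14.7%). The last pair lay outside the window used for naming and were chosen after their values were seen. AT4G29700, only 66 places away, differed in 16 of 107 lines with the common-SD calls and in 8 of 104 with separate SDs.

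In the 14 lines with both genes in the lower mode, the flanks mostly followed AT4G29200. AT4G31570 was in the state typical of AT4G29200-off lines in 14 of 14, and AT4G32240 in 13 with 1 line between. AT4G31000 was in that state in 11 lines, AT4G25870 in 10 and AT4G22280 in 12. Leaving out Q202 and R113, AT4G31570 was in that state in 12 of 12. Among all 46 AT4G29200-off lines, AT4G31570 differed from AT4G29200 in 0 lines, AT4G32240 in 2 and AT4G31000 in 4. AT4G25870 and AT4G22280 differed in 5 each. On both sides of AT4G29700 most of the 14 lines had signals of the AT4G29200-off kind, as did most off lines.

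All 8 lines in which AT4G31570 differed from AT4G29200 had AT4G29200 on. In 5 of them, Q170, Q189, Q219, R042 and R103, AT4G29700 was low, between 3.70 and 3.93, as in other AT4G29200-on lines. The other 3, Q039, R165 and Q111, had AT4G29700 at 4.74 to 5.67. By posterior AT4G29700 was still on-type in the first 5 lines and off-type in Q039 and R165, while Q111 lay between the calls with an on-type posterior of 0.788. Before AT4G29200, AT4G25870 was on-type in R165 but off-type in Q039 and Q111.

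**Figure D3:**
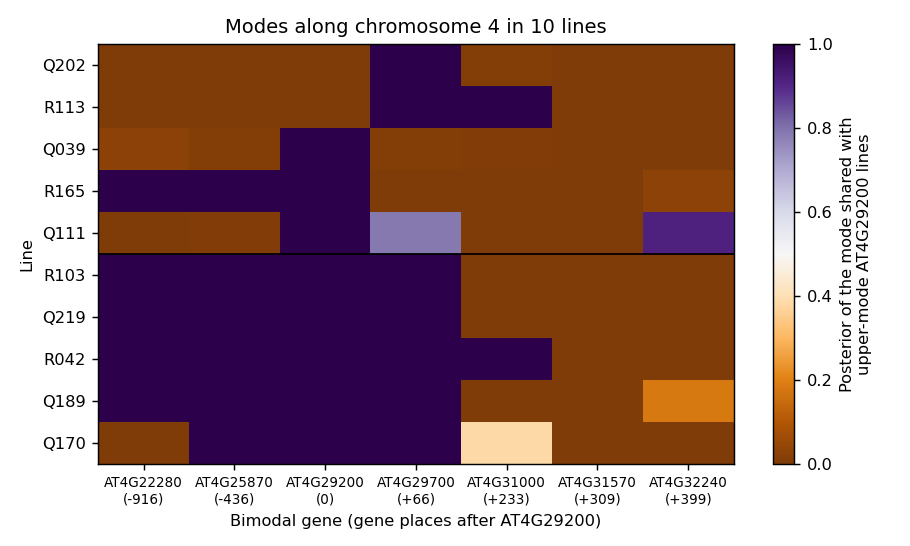
Posterior of the mode typical of AT4G29200-on lines, from 0 (brown) to 1 (purple), for 7 bimodal genes of chromosome 4 in gene order (columns, with gene places after AT4G29200) in 10 lines (rows); the 5 lines above the black line are those of unmatched signals. AT4G31570 is brown in all 10 lines, while AT4G29700 is purple in Q202, R113 and the 5 lower lines and paler purple, at 0.788, in Q111.

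Genes nearer to AT4G29200 were compared in the 5 unmatched lines. ATMND1, a meiotic recombination gene 3 places before AT4G29200, averaged 4.13 ± 0.139 in the 44 other lines with AT4G29200 off and 5.00 ± 0.203 in the 67 with it on. Q202 had 4.31 and R113 had 4.25, within the off range, which ended at 4.42. Q039 had 4.59, R165 had 4.49 and Q111 had 4.52, close to the lower end of the on range at 4.56.

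AT4G29260, an acid phosphatase family gene 6 places after AT4G29200, ran the other way, at 8.23 ± 0.150 in the off lines and 7.31 ± 0.204 in the on lines. Q202 had 8.19, R113 had 7.99, Q039 had 8.16 and R165 had 7.85, all in the off range of 7.82 to 8.47. Q111 had 7.19, in the on range. AT4G29590, a methyltransferase family gene 52 places after AT4G29200, stood at 7.86 ± 0.125 in the off lines and 7.29 ± 0.145 in the on lines. All 5 lines were at 7.79 to 8.04, nearer the off mean.

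AT4G29735, 71 places after AT4G29200 and thus beyond AT4G29700, ran from 9.60 to 10.36 in the off lines and from 10.41 to 11.17 in the on lines. Q202 at 10.26, R165 at 9.82 and Q111 at 10.13 were in the off range. R113 at 10.41 was at the lower edge of the on range, and Q039 at 10.65 was within it. AT4G29710, 68 places after AT4G29200, was at 3.12 in R113 and 3.09 in Q111, below the off range, which began at 3.14. It was at 3.32 in R165 and 3.46 in Q039, above the on range, which ended at 3.30, and at 3.20 in Q202, in both ranges.

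The 5 lines therefore showed several patterns. Q202 was off-type at ATMND1, AT4G29260 and AT4G29735, with a low AT4G29700. Its AT4G29200 signal of 6.05, like that of R113, was above those of all other off lines. R113, also with a low AT4G29700, was off-type at AT4G25870, ATMND1, AT4G29260, AT4G31570 and AT4G32240, and nearer the off mean at AT4G29590. It was on-type at AT4G29710 and AT4G31000, and its AT4G29735 signal was at the lower edge of the on range. R165 was on-type at AT4G25870 and AT4G29200 and off-type at AT4G29260, AT4G29710 and AT4G29735. Q111 and Q039 alternated along the stretch: Q111 was off-type at AT4G25870, on-type at AT4G29260, off-type at AT4G29735 and on-type at AT4G32240, and Q039 was off-type at AT4G25870, AT4G29260 and AT4G29710 and on-type at AT4G29735.

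The letter of the line did not pass the test for either gene. AT4G29200 averaged 7.48 ± 2.84 (SD, n = 59) in Q lines and 8.01 ± 2.76 (n = 57) in R lines, a difference of Q minus R of -0.53 ± 0.513 (SE), with a limma adjusted p of 0.621. AT4G29700 averaged 4.45 ± 0.847 and 4.30 ± 0.782, a difference of 0.15 ± 0.149 with an adjusted p of 0.630. Of all probe sets tested, 3.07% passed between letters, of which 416 were higher and 282 lower in Q lines, or 347 and 417 once array medians were subtracted. The tandem relative AT4G29680 was lower in Q lines, by 0.11 ± 0.0334 on the log2 scale (adjusted p 0.0452), but the adjusted p was 0.0621 without line R162, 0.0602 without the 5 unmatched lines and 0.854 with 10 principal components as covariates.

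The stretch of 4 phosphatase-like genes was tested against the score of each gene, the posterior of its upper mode, with the letter as a covariate. AT4G29680 was bright, at 8.11 ± 0.188 (SD, n = 116), and did not pass either test, with a mean of 8.11 in lines with AT4G29200 off and in lines with it on. AT4G29690 and AT4G29710, on either side of AT4G29700, were dim, at 3.77 ± 0.234 and 3.18 ± 0.173. Only 13.4% of probe sets had a lower mean than AT4G29690, and 2.26% a lower mean than AT4G29710.

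Both dim relatives moved with AT4G29700 and, in the opposite direction, with AT4G29200. AT4G29690 was lowest at 3.62, had a median of 3.98 and was highest at 4.37 in the 46 lines with AT4G29200 off, and was 3.35, 3.61 and 4.18 in the 70 with it on. AT4G29710 was 3.12, 3.33 and 3.65 in the off lines and 2.88, 3.07 and 3.46 in the on lines. The ranges overlapped for both. Per full score of AT4G29700, AT4G29690 was higher by 0.41 ± 0.0363 (SE, limma adjusted p 2.53e-16) and AT4G29710 by 0.30 ± 0.0270 (adjusted p 2.53e-16). Per full score of AT4G29200 they were lower by 0.34 and 0.28, with 51.2% and 60.9% of their variance accounted for, against 52.2% and 52.3% for AT4G29700. They ranked second and first among all probe sets in the test with AT4G29700, in which 6.11% of probe sets passed, 3.32% higher and 2.78% lower. Whether the probes of one family member detect the transcript of another was not tested.

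Within a class of lines the relatives could be set against AT4G29700 directly, leaving out the 5 unmatched lines. In the 44 lines with AT4G29200 off, AT4G29690 and AT4G29700 had a Pearson r of 0.486 (permutation p 0.00093, adjusted 0.00558 over 6 relations) and a Spearman rho of 0.487 (permutation p 0.00088, adjusted 0.00528). The Pearson r was 0.425 without the 2 lines farthest from the median, 0.429 in Q lines and 0.553 in R lines. In the 67 lines with AT4G29200 on it was -0.0749, with a permutation p of 0.543. For AT4G29710 it was 0.208 and 0.0504 in the off and on lines, and for AT4G29680 -0.108 and -0.142, none of which passed. The lines left out were chosen after their AT4G29700 signals were seen, which limits these correlations. Of them Q039, R165 and Q111 were on lines, with AT4G29690 at 3.89, 4.18 and 4.14, against 3.61 ± 0.120 in the other 67. Without them the SD of AT4G29700 in on lines was 0.181, against 0.351 in all 70, and the correlation over all 70 was not tested.

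In the wider list of extracellular nucleotide and phosphodiesterase genes, 4 of 21 members had a named probe set. They were the 3 phosphatase-like genes AT4G29680, AT4G29690 and AT4G29700 and the apyrase gene APY3. APY3, at 3.83 ± 0.118, passed no test. Of the 3 members other than AT4G29700, 1 was higher with AT4G29700 and none lower, against 3.32% higher and 2.78% lower over all probe sets. That member was AT4G29690, which was also the only 1 to pass with AT4G29200, lower in on lines. The median change with AT4G29700, 0.04 against 0.002 over all probe sets, was the value of APY3.

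Genes of the stretch that holds AT4G29200 gave the strongest associations with it. In all, 1202 probe sets (5.28%) passed, 632 (2.78%) higher and 570 (2.51%) lower in lines with AT4G29200 on. AT4G29260 was lower by 0.89 ± 0.0384 on the log2 scale per full score (limma adjusted p 5.15e-41), with 82.1% of its variance accounted for. ATMND1 was higher by 0.84 ± 0.0366 (82.0% of its variance) and AT4G31570 by 1.34 ± 0.0739 (73.9%). AT4G29735 was higher by 0.61, and AT4G29590 was lower by 0.54. Farther up the chromosome, AT4G26940, a galactosyltransferase family gene, was lower by 0.52, AT4G28100 by 0.78 and AT4G27980 by 0.74. All 8 passed within Q lines alone, within R lines alone and with 10 principal components as covariates.

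Between AT4G29200 and AT4G29700 most of the named genes did not pass. The annotation named 30 genes there, with 32 probe sets, of which 5 passed with AT4G29200 and 4 with AT4G29700. Genes there without a named probe set were not assessed. AT4G29240, AT4G29260, AT4G29590 and AT4G29690 passed with both, each lower with AT4G29200 on and higher with a higher AT4G29700 score. AT4G29620 passed only the test with AT4G29200, higher by 0.13. Its change with AT4G29700 was -0.12 with an adjusted p of 0.0786, and the difference between the tests was not tested. Just outside, SNF7.1, an ESCRT membrane-sorting gene, was higher with AT4G29200 on by 0.16. The calls of AT4G29620 and SNF7.1 were lost with 10 principal components as covariates.

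By position, 300 of 1960 probe sets of chromosome 4 (15.3%) passed with AT4G29200, against 1.77% on chromosome 1, 2.18% on chromosome 2, 2.00% on chromosome 3 and 4.09% on chromosome 5. With AT4G29700 it was 271 (13.8%) on chromosome 4 and 2.88 to 4.00% on the others. The 5 passing probe sets between the members had a median of 51.2% of variance accounted for by AT4G29200. Those over 1000 places away on chromosome 4 had a median of 12.3%. For AT4G29700 these medians were 45.4%, from 4 probe sets, and 11.1%. The share that passed was not highest between the members. For AT4G29200 it was 15.6% there, reached 26.9% farther out within 1000 places and was 8.56% beyond. For AT4G29700 these shares were 12.5%, 23.6% and 8.64%.

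**Figure D4:**
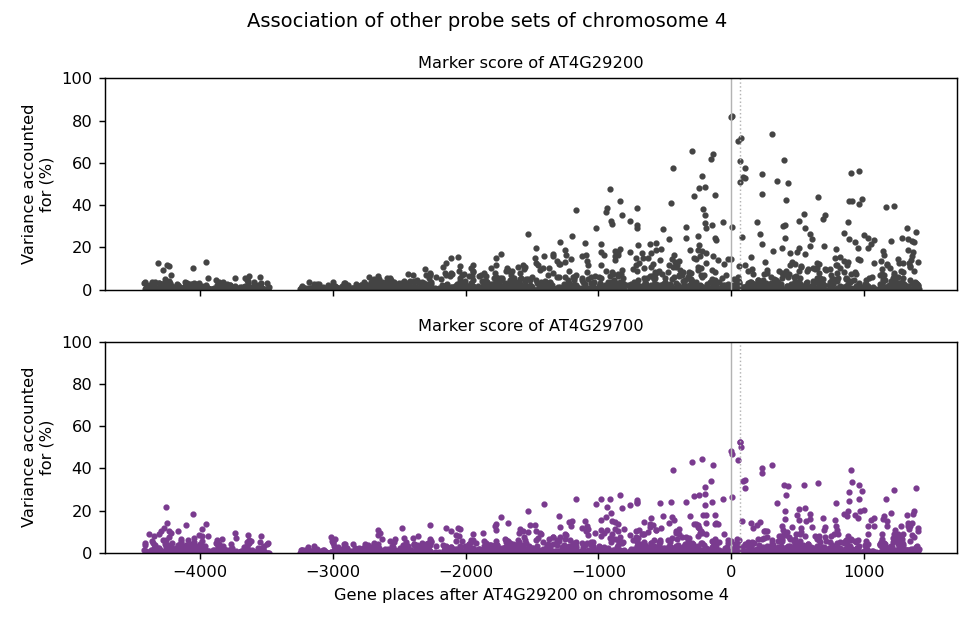
Percent of the variance of each named chromosome 4 probe set accounted for by the score of AT4G29200 (top) or AT4G29700 (bottom), against gene places after AT4G29200; the solid grey line marks AT4G29200 and the dotted one AT4G29700, whose own probe sets are left out. The highest points are 82.1% in the top panel and 52.3% in the bottom panel, both close to the marked genes.

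Of the 8 genes most strongly associated with AT4G29700, 5 were also among the 8 of AT4G29200, each with the opposite sign; both tests used the same lines, in most of which the genes were opposite. After its 2 relatives came AT4G29735, lower by 0.60 per full AT4G29700 score (50.2% of its variance), ATMND1, lower by 0.76 (48.3%), and AT4G29260, higher by 0.79 (46.8%). RRP41L, an exosome-like gene, was lower by 0.56, AT4G29590 was higher by 0.50 and AT4G26940 higher by 0.50. With 10 principal components as covariates 6 of the 8 passed, all but RRP41L and AT4G26940. LHCB4.1 moved with both, higher by 0.18 with AT4G29200 on (adjusted p 0.0187) and lower by 0.20 per full AT4G29700 score (adjusted p 0.0312). Its part in the other results was not tested. The 3' to 5' difference of array control genes, a measure of RNA quality, had a median of 1.08 in lines with AT4G29200 off (0.794 to 1.58) and of 1.07 in lines with it on (0.661 to 1.92).

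Fitting both scores together asked what followed one gene in lines alike for the other. With AT4G29700 held, 441 probe sets (1.94%) passed for AT4G29200, 0.919% higher and 1.02% lower, again led by AT4G29260, lower by 0.80, ATMND1, higher by 0.75, and AT4G31570, higher by 1.22. AT4G32240 was lower by 0.99, AT4G27980 by 0.68, AT4G29590 by 0.46 and AT4G26940 by 0.43, and AT4G29735 was higher by 0.49. AT4G29710 was lower by 0.19 (adjusted p 1.40e-08) and AT4G29690 by 0.20 (adjusted p 0.000145). With 10 principal components these adjusted p were 0.244 and 0.214. The AT4G29690 call was also lost with the separate-SD score (0.370), with the signal itself as score (0.104) and in R lines alone (0.168). Of the 3 storage and oil body genes 1 passed, OLEO3, higher by 0.10 (adjusted p 0.00918), and the median change of the list was 0.02 against 0.01 over all probe sets. None of the 3 seed coat genes or 2 endosperm genes passed any of the 5 tests.

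With AT4G29200 held, 212 probe sets (0.932%) passed for AT4G29700, 141 (0.62%) higher and 71 (0.312%) lower, but only 8 passed without the 5 unmatched lines. The tandem relatives were among the 212, AT4G29690 higher by 0.25 ± 0.0444 (SE, adjusted p 0.00103) and AT4G29710 by 0.15 ± 0.0302 (adjusted p 0.00574). Without the 5 lines these were 0.17 (adjusted p 0.118) and 0.0925 (adjusted p 0.275), and neither passed with 10 principal components or within a single letter. AT4G29735 was lower by 0.21 (adjusted p 0.0315), and OLEO3 was higher by 0.11 (adjusted p 0.0393). On chromosome 4, 26 of 1960 probe sets (1.33%) passed, against 0.273 to 0.927% on the others.

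Genes elsewhere also followed AT4G29700 once AT4G29200 was held. TBL26, a trichome birefringence-like gene of a family that acetylates cell wall polymers, at the start of chromosome 4, was higher by 0.68 ± 0.119 (adjusted p 0.00103). On chromosome 1, AT1G06000, a flavonol rhamnosyltransferase gene, was higher by 0.41, AT1G67800 by 0.33 and AT1G67620 by 0.29. On chromosome 5, AT5G62210 was higher by 0.79 and AT5G53320, a receptor-like kinase gene, by 0.43. Of the 8 leading genes of this test, AT1G67800 and AT1G67620 still passed without the 5 lines, 3 genes passed in R lines alone, and 0 in Q lines alone or with 10 principal components (limma; 1896 and 1501 probe sets had an unadjusted p under 0.05 there). Without the 5 lines the change of TBL26 was 0.61 (adjusted p 0.0528).

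The level of AT4G29700 also differed with AT4G02540, a bimodal gene near the start of chromosome 4 that was chosen after its values were seen. In the 30 lines with both AT4G29200 and AT4G02540 in the lower mode, AT4G29700 was lowest at 4.34, had a median of 5.58 and reached 6.48, a mean of 5.47 ± 0.594. In the 16 lines with AT4G29200 lower and AT4G02540 upper it was 3.64, 4.57 and 5.43, a mean of 4.56 ± 0.439. The ranges overlapped, and the second class was the dimmer one. Without Q202 and R113, which both fall in the second class, its mean was 4.68 ± 0.319 (n = 14).

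The same order was seen within the letters. In Q lines the means were 5.49 (n = 17) and 4.63 (n = 9), and in R lines 5.45 (n = 13) and 4.47 (n = 7). With AT4G29200 in the upper mode the difference was smaller, 3.94 ± 0.401 (n = 45) with AT4G02540 lower and 3.73 ± 0.169 (n = 25) with it upper. The neighbour AT4G29690 followed, with means of 4.03 ± 0.181 and 3.87 ± 0.122 in the off lines of AT4G29200.

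Across all probe sets, AT4G02540 was lower by 1.12 ± 0.265 (SE) per full AT4G29700 score with AT4G29200 held, with a limma adjusted p of 0.0192. With AT4G29700 alone it did not pass, at -0.60 (adjusted p 0.0567). The adjusted p with AT4G29200 held was 0.371 in Q lines alone and 0.132 in R lines alone. Without the 5 unmatched lines the change was -1.18 with an adjusted p of 0.0926, and with the separate-SD score -0.87 with an adjusted p of 0.291. With 10 principal components the adjusted p was 0.947. AT4G02540 itself did not pass with AT4G29200, at -0.01 ± 0.177 (adjusted p 0.988).

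**Figure D5:**
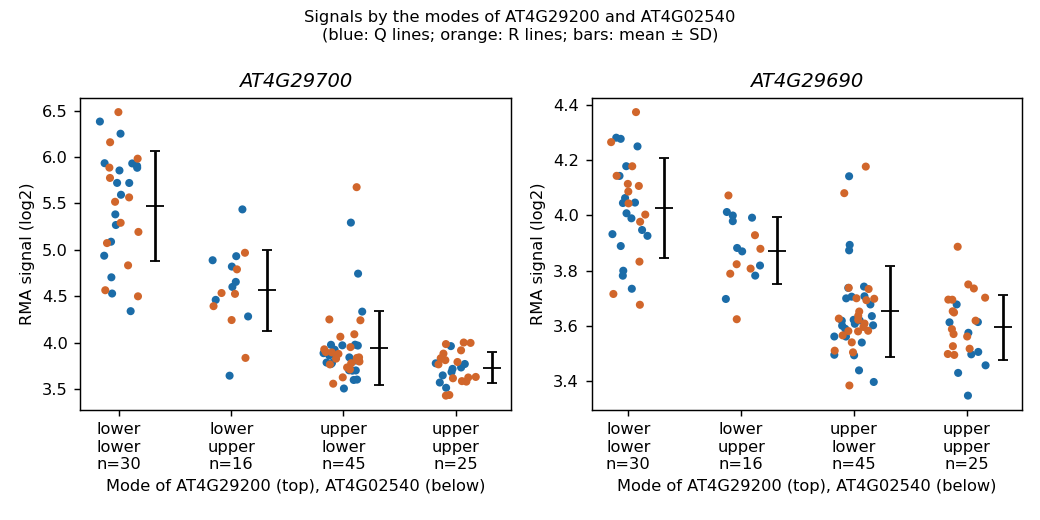
Signal on the log2 scale of AT4G29700 (left) and its neighbour AT4G29690 (right) in lines sorted by the modes of AT4G29200 (upper label) and AT4G02540 (lower label); points are lines coloured by letter, and bars give mean ± SD. Lines lower for both have the highest AT4G29700, 5.47 on average, and those upper for both the lowest, 3.73.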

How the data were processed

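RNA of developing seeds was hybridised to 1 Affymetrix array per line. The log2 signals that the authors deposited come from RMA, according to the submitters' processing notes. Neither its version nor a genome build was given in the sources used here. RMA sets arrays to a common distribution and compresses dim signals. The number of arrays limits the precision. No per-sample column was left unused (0), and the 64 control probe sets were not tested.

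Genes were named from the platform annotation: 13513 probe sets had 1 gene, of which 13436 matched a RefSeq table (TAIR10.1) used for names and gene order only, 503 had several and 8730 had none. The genes, lists and comparisons were chosen with earlier results of these data known.

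Modes came from mixtures of 2 normal components, with lines called at a posterior under 0.1 or over 0.9. A gene counted as bimodal if its modes were 4 SD and 1 log2 apart or more, its rarer component held 0.2 or more and BIC gained 10 or more. Tests used limma 3.58.1 in R 4.3.3 (lmFit, eBayes) over all probe sets, with Benjamini-Hochberg adjustment and a threshold of 0.05; association tests left out both genes. On simulated data 100% of 200 changes of 2 SD were recovered in each of 3 comparisons. The simulated noise was independent between probe sets. Smaller changes, such as those of AT4G29690 and AT4G29710 with AT4G29200 held, were not simulated, so their recovery is unknown. Correlations used 100000 two-sided permutations. Python 3.11.15, numpy 2.4.6, pandas 2.3.3, scipy 1.17.1 and matplotlib 3.10.9 were used.

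Genes were named by rule: both genes, bimodal genes of chromosome 4 within 400 places, the 8 strongest named genes of each association, passing genes within 10 places or between the 2 genes, the nucleotide and phosphodiesterase list, and the highest and lowest of each marker list (storage and oil body, seed coat, endosperm, leaf and silique wall). A part of the rule on protein identity was not applied, as no protein table was used here. Alternatives were array centring, a mean filter of 5, covariates for RNA quality or 10 principal components, array weights, other marker scores and subsets of lines.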

Additional observations from a re-analysis of the deposited data

How the results depend on the processing

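No paired analysis was possible because each line was measured once and line numbers do not pair Q with R lines. With 10 principal components as covariates, 0.145% of probe sets passed between letters, 0.875% with AT4G29200, 0.0791% with AT4G29700, 0.255% with AT4G29200 given AT4G29700 and 0% with AT4G29700 given AT4G29200 (limma, 0 probe sets, with 1501 at an unadjusted p under 0.05). The letter difference then changed sign, to 0.0522 for AT4G29200 (adjusted p 0.980) and -0.0941 for AT4G29700 (adjusted p 0.829); the cause was not tested. With the signal itself as score, 9.46% passed with AT4G29700, 3.17% with AT4G29200 given AT4G29700 and 6.51% the other way. In the 59 Q lines alone the 4 associations gave 1.73%, 1.03%, 0.475% and 0% (limma, 1896 unadjusted), and in the 57 R lines alone 1.75%, 1.64%, 0.677% and 0.0572%; these tests had fewer lines.

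Alternatives added after seeing the data were the separate-SD score, the 5 unmatched lines left out and line R162 left out. The separate-SD score gave 0.642% for AT4G29200 given AT4G29700 and 0.0528% the other way, and leaving out the 5 lines gave 0.0352% for the latter. The share of lines with AT4G29700 upper was 43.1% with separate SDs. Both genes were in the same mode in 7.69% of lines with separate SDs and in 8.42% with posteriors under 0.01 or over 0.99. The other counts of passing probe sets were within 1.5 times those reported. Of the values of 70 gene results followed over these settings, 757 kept their direction and call, 120 lost the call and 2 reversed; 37 of the losses came with the 10 components. AT4G29690 and AT4G29710 lie near the bottom of the signal scale, which limits the precision of their changes.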

Other observations

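For no other probe set did the association with either gene pass a limma interaction test between Q and R lines. This does not show that the associations were equal. For AT4G29200, 0 of 22744 probe sets passed, the smallest adjusted p was 0.431 and 1025 had an unadjusted p under 0.05. For AT4G29700, 0 passed, the smallest adjusted p was 0.998 and 941 had an unadjusted p under 0.05.

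AT4G30020, which lies beyond AT4G29735 and was chosen after its values were seen, averaged 8.07 ± 0.176 (SD, n = 44) in lines with AT4G29200 off and 8.53 ± 0.184 (n = 67) in lines with it on, without the 5 unmatched lines. Its signals in those 5 were 7.88 in Q202, 8.14 in R113, 8.07 in Q039, 8.24 in R165 and 7.98 in Q111. In the 44 off lines, the Pearson r of AT4G29700 with the RNA quality measure was 0.139, given as a description.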
